A study of Mus musculus with 2 samples.

Results

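The genes described here carry the name of the ubiquitin-conjugating (E2) enzymes, chosen as the rows of the authors' expression table whose name starts with Ube2 followed by a letter. This gave 35 of 25430 gene names. The members were chosen by name alone, but the family was picked with its values known, and Ube2t was selected on its FPKM in both libraries, so its difference stands here as a description. RNA was sequenced from primary mouse embryonic fibroblasts, connective tissue cells grown from E13.5 embryos of matings between Sptbn1+/- mice. One library came from wild-type cells and 1 from Sptbn1 knockout cells, homozygous by the series' title. Sptbn1 encodes beta-2 spectrin, a protein of the membrane skeleton. The number of embryos behind each library is not given in the sources used here. With 1 library per genotype no value has a spread between cultures, no test was possible, and each statement compares 2 libraries.

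Ubiquitin is attached to proteins by a relay of enzymes. An E1 enzyme activates it, an E2 enzyme carries it on a catalytic cysteine, and an E3 ligase brings the loaded E2 to the substrate. The E2 largely sets whether a single ubiquitin or a chain is built and how the chain is linked, and some E2 enzymes carry relatives of ubiquitin such as SUMO, NEDD8 and ISG15 instead. In dividing fibroblasts E2 enzymes serve mitotic exit, DNA repair, disposal of misfolded proteins and turnover of signalling proteins.

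The names do not all stand for working E2 enzymes. Ube2cbp, also named Ube3d, encodes an E3 ligase that binds the product of Ube2c. Ube2v1 and Ube2v2 encode E2 variants that lack the catalytic cysteine and act as partners of Ube2n. Of the 35 names, 33 matched a current symbol and 2 an older one, with Ube2d2 now named Ube2d2a and Ube2dnl now Ube2dnl1. No name was repeated.

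Values are FPKM as deposited, a unit corrected for transcript length and sequencing depth, so levels may be compared between genes. A difference is the log2 ratio of knockout to wild type after adding 1 FPKM to each, and it is too small for genes of low level. A gene counts as measured when its FPKM over both libraries average at least 1: 30 of the 35 names and 11070 genes in all. All 30 had at least 1.62 FPKM in each library. Sptbn1 itself was at 36.6 FPKM in knockout against 69.6 FPKM in wild type, 52.5% of that level. This value covers the whole gene and the deleted part was not examined, so it does not check the genotype, and the knockout library is throughout the library so labelled. All 12 fibroblast markers searched were measured, with 9 below 0 and 2 at least 1.2-fold lower, Dcn (239 against 300.1 FPKM) and S100a4 (245 against 303 FPKM). The 16 macrophage markers were measured too, with 14 of 16 below 0 and a median log2 ratio of -0.32 (0.11 on a common FPKM sum). Of all measured genes, 63.1% were below 0 and 10.6% at least 1.2-fold lower. Of 5 skeletal muscle markers, Tnnt2 alone was measured, at 1.68 against 1.15 FPKM (0.32). Actc1 was listed at 0.358 against 0.0556 FPKM and Myh3 at 0.0283 against 0.00585 FPKM, and Myog and Myod1 at 0 in both libraries.

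Apart from Ube2t, the Ube2 genes were at near-equal levels in the libraries. Ube2t was at 1.99 FPKM in knockout against 9.28 FPKM in wild type. The other 29 measured genes lay between 78.6% and 111% of their wild-type level. The median log2 ratio of the 30 was -0.07, beside -0.05 over all measured genes. Below 0 were 21 of 30 (70.0%), beside 63.1% of all measured genes, and on a common FPKM sum only Ube2t remained below 0. The members thus split almost evenly around the median gene, with 16 below it and 14 above. At least 2-fold lower was 1 of 30, Ube2t, where 0.379% of all measured genes were, and none was at least 2-fold higher, where 0.361% were.

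**Figure D1:**
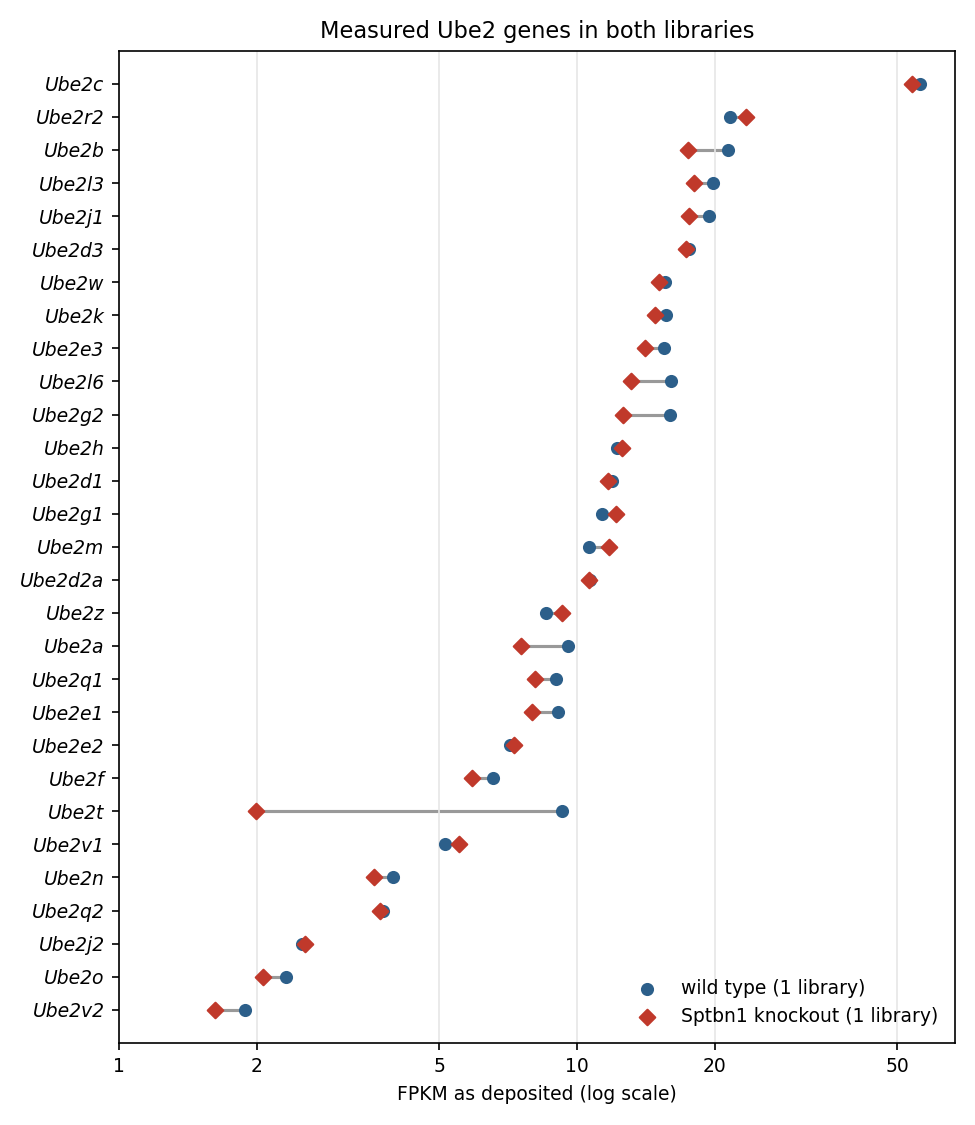
FPKM of 29 measured Ube2 genes in the wild-type library (blue circles) and the Sptbn1 knockout library (red diamonds), on a log scale and ordered by mean level, with 1 library per genotype and no error bars. Ube2t stands out at 1.99 against 9.28 FPKM, while the other genes lie between 78.6% and 111% of their wild-type level.

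Of the 30, 25 had a mean of 5 FPKM or more and 16 a mean of 10 FPKM or more, and their median level was 10.9 FPKM beside 5.41 FPKM for all measured genes. Ube2c, at 53.8 FPKM in knockout against 55.9 FPKM in wild type, stood far above the others and made up 15.4% and 14.9% of the summed FPKM of the 35 names. Next in mean level came Ube2r2, Ube2b, Ube2l3 and Ube2j1, all between 17.5 and 23.4 FPKM, and at the low end stood Ube2j2, Ube2o and Ube2v2, all at 2.54 FPKM or less. The 23 genes with means between 5 and 20 FPKM form a continuous series. Without replicates their neighbours in this order cannot be separated. The sums over the 35 names were 349 FPKM in knockout against 376 FPKM in wild type.

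Ube2t encodes the E2 of the Fanconi anaemia pathway. Together with the E3 ligase encoded by Fancl it attaches a single ubiquitin to the products of Fancd2 and Fanci at stalled replication forks. Its knockout level was 21.5% of its wild-type level, and the log2 ratio was -1.78. Each scaling tried applies 1 factor to all genes, so it could not turn the sign of so large a difference. The Ube2t ratio was -1.41 on a common FPKM sum and -1.57 on that sum without the outlying rows Mir682 and Dnaja1. It was -1.73 with the median gene or the upper quartile made equal. With 0.1 FPKM added in place of 1 FPKM the ratio was -2.16. Among 11070 measured genes 21, Ube2t included, had a ratio this low or lower. Among the 3161 genes within 1.5 times of its mean level, 5 did, and 0.411% were at least 2-fold lower. For Ube2t the authors' deposited table gives a p-value of 0.010329, which holds no spread between cultures.

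**Figure D2:**
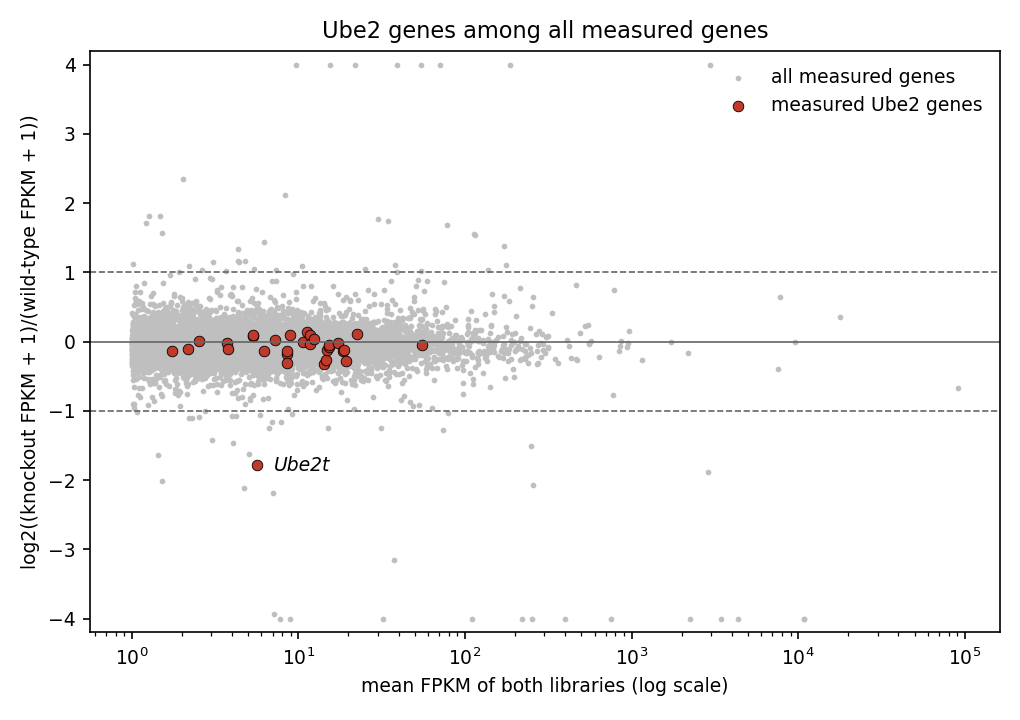
Log2 ratio of knockout over wild type against mean FPKM (log scale) for all measured genes (grey) and the 30 measured Ube2 genes (red), with dashed lines at 2-fold. Ube2t lies at -1.78 and the others between -0.32 and 0.13; 21 grey genes beyond 4 on either side are drawn at the edge.

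The promoters of Ube2t and Ube2c are shown because both genes serve dividing cells and yet stood far apart in their ratios. Each is the 250 bases before the annotated transcription start, from the RefSeq table of build GRCm38.p6, not the build of the alignment. Capitals mark the CCAAT box, searched as CCAAT on both strands, and the cell cycle homology element of promoters repressed outside late cell cycle phases, searched as TTTGAA on both strands. No 2 different motifs overlap. The Ube2t promoter spans chr1:134962315-134962564 on the plus strand and the Ube2c promoter chr2:164769679-164769928 on the plus strand.
Ube2t: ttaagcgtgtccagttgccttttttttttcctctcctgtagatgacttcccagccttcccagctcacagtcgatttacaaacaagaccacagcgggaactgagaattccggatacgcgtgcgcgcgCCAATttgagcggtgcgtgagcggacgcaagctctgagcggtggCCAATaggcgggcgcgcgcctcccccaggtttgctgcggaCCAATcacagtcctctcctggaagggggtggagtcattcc
Ube2c: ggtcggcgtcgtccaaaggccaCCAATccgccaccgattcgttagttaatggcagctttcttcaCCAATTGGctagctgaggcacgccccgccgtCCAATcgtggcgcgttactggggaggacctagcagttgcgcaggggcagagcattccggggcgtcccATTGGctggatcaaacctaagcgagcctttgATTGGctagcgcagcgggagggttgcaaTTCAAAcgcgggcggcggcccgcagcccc
The Ube2t window holds 3 CCAAT boxes, the nearest 36 to 40 bases before the start, and no TTTGAA. The Ube2c window holds 6 CCAAT boxes counting both strands, with 1 pair overlapping, and 1 cell cycle homology element 24 to 29 bases before the start, read as TTCAAA. Of 32851 promoter windows of this length 33.8% hold a CCAAT box and 16.0% a TTTGAA. Of 28 Ube2 genes with an entry, 7 hold the former and 3 (Ube2c, Ube2f and Ube2z) the latter. These matches are descriptions of letters, not of bound sites.

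Proliferation genes did not share the difference of Ube2t. Of 33 measured members of a list of mitotic and replication genes, 21 were above 0 and 12 below, beside 63.1% of all measured genes below 0. Their median was 0.03 (0.46 on a common FPKM sum). None was at least 1.2-fold lower, where 10.6% of all measured genes were. At least 1.2-fold higher was 1, Cdc20, where 5.54% of all measured genes were. The next largest was Aurkb, a mitotic kinase gene, at 8.64 FPKM in knockout against 10.3 FPKM in wild type (-0.23). The growth marker Mki67 was at 34.4 against 29.6 FPKM.

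With 1 FPKM added, no other measured Fanconi gene was at least 1.2-fold lower, where 10.6% of all measured genes were. Of 15 listed genes of the Fanconi core complex, its substrates and the enzyme that removes the ubiquitin, 11 were measured. Of these 8 were below 0 and 3 above, beside 63.1% of all measured genes below 0. Their median was -0.03 (0.33 on a common FPKM sum). Fancl, the E3 partner of Ube2t, was at 2.71 FPKM in knockout against 1.86 FPKM in wild type, a log2 ratio of 0.37. It was the 1 listed gene at least 1.2-fold higher, where 5.54% of all measured genes were. Fanca, of the core complex, was at 1.31 against 1.72 FPKM (-0.24), 75.8% of its wild-type level before 1 FPKM was added. The substrates were below the measured limit, with Fancd2 listed at 0.0620 against 0.270 FPKM and Fanci at 0.421 against 0.731 FPKM. No fold is given for these low values, whose precision is unknown.

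The measured genes nearest to Ube2t on chromosome 1 did not follow it. The nearest measured genes on one side were Ppp1r12b at 3.33 FPKM in knockout against 2.79 FPKM in wild type (0.19) and Kdm5b (-0.01). They lie 5 and 7 places away in the gene order, and the genes between were not measured. On the other side the nearest measured genes were Lgr6 at 1.07 against 1.36 FPKM (-0.19) and Ptprv at 1.41 against 1.40 FPKM (0.01). At such low levels the added 1 FPKM makes a difference too small. Ube2t also had the shortest annotated coding transcript of the measured Ube2 genes, 1116 bases at its longest. Among 1363 measured genes whose longest coding transcript was 1500 bases or less, 0.807% were at least 2-fold lower and 0.587% at least 2-fold higher. The part of transcript length in the Ube2t value was not tested. The 3 other measured Ube2 genes of that length, Ube2e1, Ube2d1 and Ube2m, lay between -0.17 and 0.13.

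The E2 enzymes of the anaphase-promoting complex, the ligase that ends mitosis, differed widely in level, and Ube2c differed little between libraries. Ube2c, which starts ubiquitin chains on the complex's substrates, had a log2 ratio of -0.05. Ube2s, which lengthens those chains, was below the measured limit at 0.666 FPKM in knockout against 0.662 FPKM in wild type. The level of Ube2c was 80.8 times that of Ube2s in the knockout library and 84.5 times in the wild-type library, ratios of unknown precision because Ube2s was low. Against Ube2t it was 27.0 times in the knockout library and 6.03 times in the wild-type library. Of 16 measured subunits and activators of the complex, 12 were above 0 and 4 below, beside 63.1% of all measured genes below 0. Their median was 0.08 (0.48 on a common FPKM sum). At least 1.2-fold higher were 4 of the 16, Anapc13, Cdc26, Cdc20 and Anapc11, where 5.54% of all measured genes were. At least 2-fold higher was 1 of them, the subunit gene Anapc13, at 34.2 against 16.1 FPKM, where 0.361% of all measured genes were.

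Ube2a and Ube2b, the mammalian pair of yeast RAD6, work with the ligase Rad18 on PCNA at damaged DNA and with Rnf20 and Rnf40 on histone H2B. Ube2a was at 7.53 FPKM in knockout against 9.57 FPKM in wild type, a log2 ratio of -0.31. Ube2b was at 17.5 against 21.4 FPKM, a log2 ratio of -0.28. Both were lower in the knockout library by nearly the same factor, so the level of Ube2b was 2.32 and 2.24 times that of Ube2a. On a common FPKM sum their log2 ratios turned to 0.11 and 0.17.

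**Figure D3:**
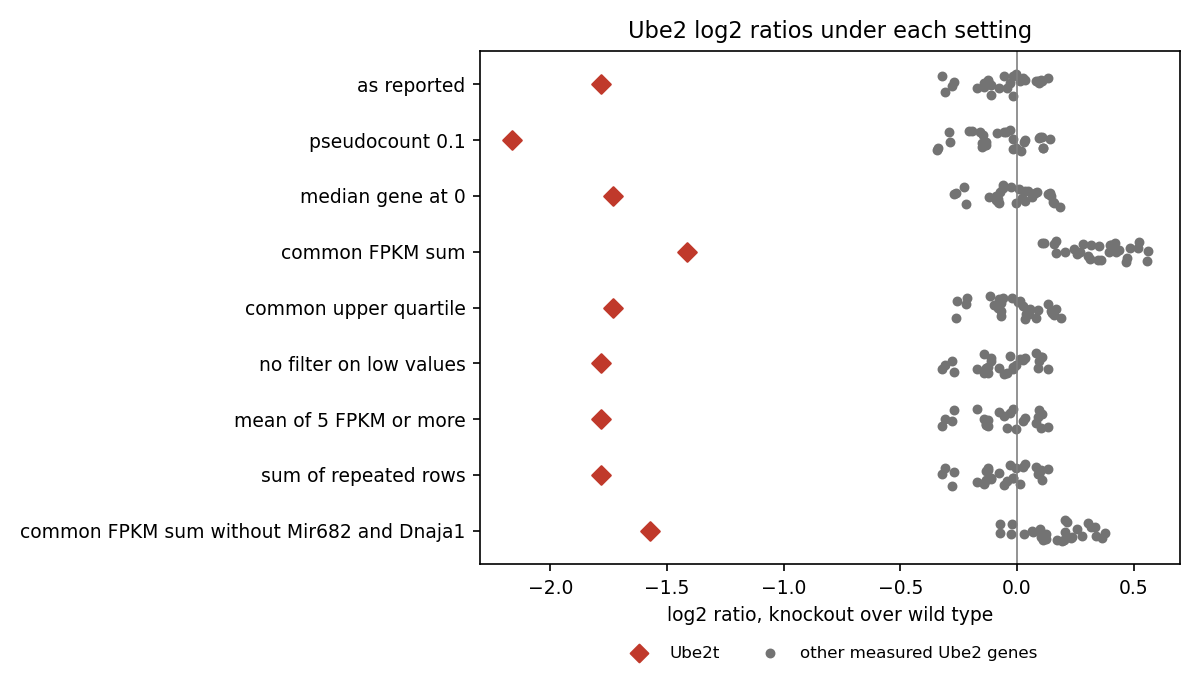
Log2 ratio of knockout over wild type of Ube2t (red diamonds) and of the other measured Ube2 genes (grey) under each scaling, pseudocount and filter. Ube2t, selected for its difference, lies between -2.16 and -1.41. Each scaling shifts all genes nearly alike, and the other genes lie above 0 on a common FPKM sum.

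Ube2a and Ube2b belong to the 5 of 30 members (16.7%) that were at least 1.2-fold lower, where 10.6% of all measured genes were. The others were Ube2t, Ube2g2 and Ube2l6. None of the 30 was at least 1.2-fold higher, where 5.54% of all measured genes were. This split rests on the scaling. With the median gene at 0 the count was 2 lower, and on a common FPKM sum it was 1 lower and 21 higher. The ligase genes that work with Ube2a, Ube2b and Ube2n lay close to 0, with a median of -0.06 (0.36 on a common FPKM sum). Below 0 were 8 of 14, beside 63.1% of all measured genes, and 6 were above. Ubr4, a ligase of the N-degron pathway, was at 12.0 against 13.9 FPKM (-0.20), Ubr2 of the same family at -0.12, and Rad18 at 12.4 FPKM in each library.

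Ube2n forms, with either Ube2v1 or Ube2v2, the enzyme that builds the nondegradative chains of DNA damage and inflammatory signalling. Ube2n was at 3.59 FPKM in knockout against 3.96 FPKM in wild type (-0.11). Ube2v1 was at 5.51 against 5.16 FPKM (0.08), and Ube2v2 was at 1.62 against 1.88 FPKM (-0.14). Ube2v1 stood above Ube2v2 in both libraries, by 3.40 and 2.74 times. Its level is uncertain, since 83.2% of its 50-base runs also occur in transcripts of other annotated genes, among them the joined gene model Gm20431. Ube2w, which attaches ubiquitin to the amino end of proteins, was at 15.1 against 15.6 FPKM (-0.04).

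The promiscuous UBE2D enzymes, which serve many ligases in vitro and in cells, lay close to 0. Ube2d1 was at 11.7 FPKM in knockout against 11.9 FPKM in wild type (-0.03), and Ube2d3 was at 17.3 against 17.5 FPKM (-0.02). Ube2d2a was at 10.6 against 10.7 FPKM, a log2 ratio of -0.01. Its p-value in the authors' deposited table was, however, 0.006326, lower than the 0.010329 of Ube2t in the same table. These were the 2 of 30 members (6.67%) whose p-value in the authors' deposited table was under 0.05, as it was for 5.6% of all measured genes. The related UBE2E enzymes, which carry an amino-terminal extension, spread a little more, with Ube2e1 at -0.17, Ube2e3 at -0.13 and Ube2e2 at 0.03.

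The E2 enzymes of ubiquitin-like modifiers lay on both sides of 0. Of 13 measured SUMO pathway genes 8 were below 0, as were 63.1% of all measured genes, and 5 above. Their median was -0.01 (0.41 on a common FPKM sum). The SUMO protease gene Senp5 was at -0.19.

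NEDD8 is attached to cullin ligases through Ube2m or Ube2f. Ube2m had the highest log2 ratio of the measured members, 0.13, at 11.8 FPKM in knockout against 10.6 FPKM in wild type. Ube2f had a log2 ratio of -0.13, at 5.90 against 6.56 FPKM. The level of Ube2m was 1.99 times that of Ube2f in the knockout library and 1.62 times in the wild-type library. Of 17 NEDD8 and cullin genes 14 were below 0, as were 63.1% of all measured genes, with a median of -0.04 (0.34 on a common FPKM sum). None was past 1.2-fold, where 10.6% of all measured genes were lower and 5.54% higher by that fold. The largest differences were those of Cul3 (-0.21) and Nedd8 (-0.21).

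Ube2l6, the interferon-induced E2 of ISG15, was at 13.1 FPKM in knockout against 16.0 FPKM in wild type, a log2 ratio of -0.27. The other genes of that pathway and its interferon program ran from -0.45 (Usp18) to 0.03 (Trim25). Of 10 measured, 9 were below 0 and 5 at least 1.2-fold lower, beside 63.1% and 10.6% of all measured genes, and the median was -0.26. The deconjugating protease gene Usp18 was at 9.35 against 13.2 FPKM (-0.45), the regulator Irf7 at 25.5 against 33.6 FPKM (-0.39), and the modifier gene Isg15 at 91.9 against 112 FPKM (-0.28). The ISG15-activating E1 gene Uba7 was at -0.14, in a row joined with other genes. On a common FPKM sum the Ube2l6 ratio was 0.17 and the list's median 0.19, and with the median gene at 0 they were -0.22 and -0.21. On a common FPKM sum 1 of these 10 genes and 7 of the 16 macrophage markers were below 0. As deposited, 9 of the 16 markers were at least 1.2-fold lower, with a summed level of 833 against 1325 FPKM. The joined row of Lyz1 and Lyz2 held most of that sum, and without it the levels were 261 against 346 FPKM. The part of these markers in the ISG15 group was not tested, and in bulk RNA fewer cells of a type and less RNA per cell cannot be told apart.

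Ube2g2 and the membrane-anchored Ube2j1 feed the ligases that dispose of misfolded proteins of the endoplasmic reticulum. Ube2g2 was at 12.6 FPKM in knockout against 15.9 FPKM in wild type, a log2 ratio of -0.32, close to that of Ube2a. On a common FPKM sum it was 0.12. Ube2j1 was at 17.5 against 19.4 FPKM (-0.14), while Ube2g1 was at 12.1 against 11.3 FPKM (0.09) and Ube2j2 at 2.54 against 2.51 FPKM (0.01). Of 11 measured genes of the matching ligase complexes 10 were below 0, beside 63.1% of all measured genes. Their median was -0.08 (0.35 on a common FPKM sum). None was past 1.2-fold, where 10.6% of all measured genes were lower and 5.54% higher by that fold. The largest differences were those of the ligase gene Rnf5 (11.5 against 13.7 FPKM, -0.23) and of Herpud1, a scaffold of these complexes (-0.21).

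**Figure D4:**
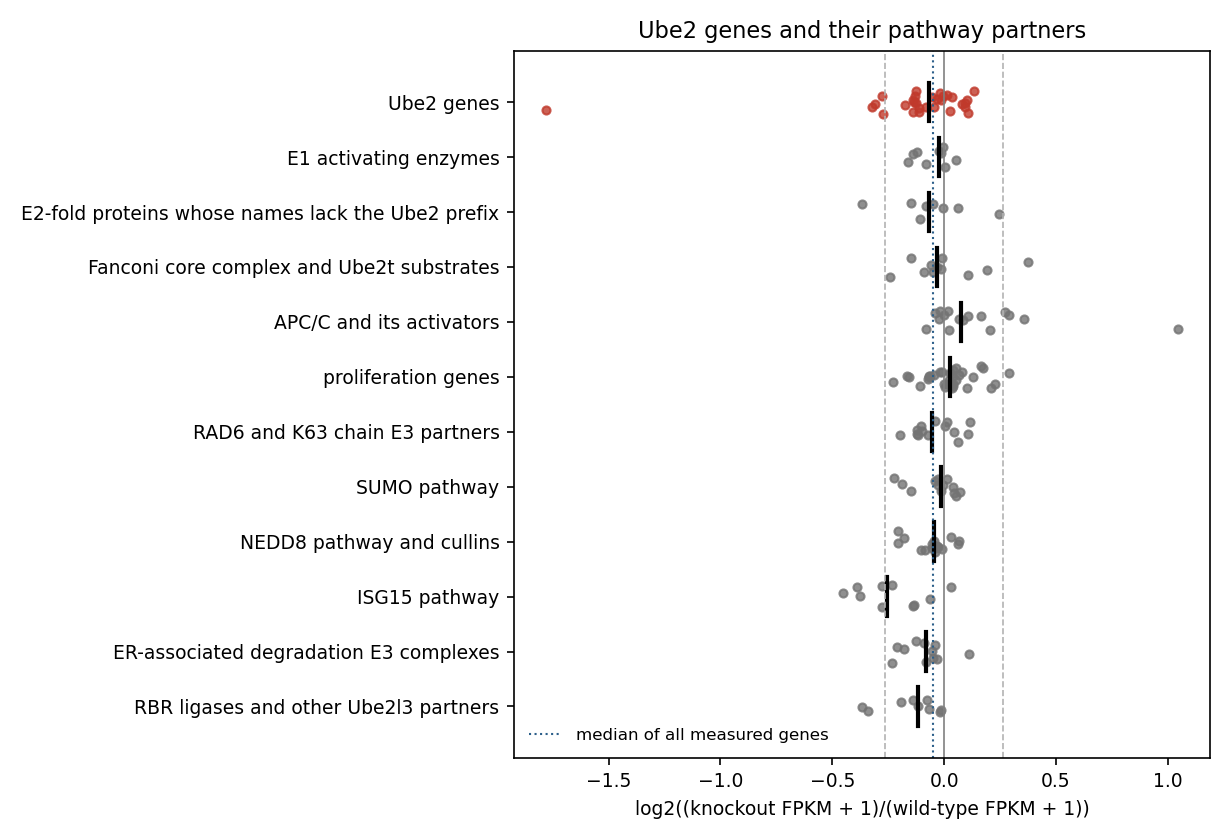
Log2 ratio of knockout over wild type for the measured Ube2 genes (red) and for each list of pathway genes (grey), with black bars at medians, a dotted line at the median of all measured genes and dashed lines at 1.2-fold. The ISG15 list has the lowest median (-0.26) and the anaphase-promoting complex (APC/C) list the highest (0.08); on a common FPKM sum every list median is positive.

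The remaining E2 enzymes lay between -0.13 and 0.11. Ube2r2, a relative of Cdc34 that serves cullin ligases, was at 23.4 FPKM in knockout against 21.6 FPKM in wild type (0.11). Ube2z, which receives ubiquitin from the E1 encoded by Uba6, was at 9.27 against 8.57 FPKM (0.10), beside Uba6 at 16.4 against 17.4 FPKM (-0.08). Ube2h, the E2 of the GID ligase complex, had a log2 ratio of 0.03, and Ube2k, which builds degradative chains, one of -0.08. Ube2o, a large protein with both E2 and E3 activity, was at 2.06 against 2.31 FPKM (-0.11). Ube2q1 was at -0.13 and Ube2q2 at -0.02. No gene of this group reached 1.2-fold on the deposited scale, where 10.6% of all measured genes were lower and 5.54% higher by that fold.

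Ube2l3 loads ligases that take ubiquitin onto their own cysteine, those of the HECT and RBR types. It was at 18.0 FPKM in knockout against 19.8 FPKM in wild type (-0.13). Of its listed RBR partners all 9 measured were below 0, beside 63.1% of all measured genes, with a median of -0.11 (0.28 on a common FPKM sum). With the median gene at 0 the count was 7 of 9, and on a common FPKM sum it was 0 of 9. At least 1.2-fold lower were 2, beside 10.6% of all measured genes. These were Rnf14, at 11.5 against 15.1 FPKM (-0.37), and Rnf19b, at 14.6 against 18.8 FPKM (-0.34).

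Upstream of the E2 enzymes, the 9 E1 subunits and related activating enzymes all lay within 1.2-fold. Of all measured genes, 10.6% were lower and 5.54% higher by that fold. Below 0 were 7 of the 9, beside 63.1% of all measured genes, and the median of the 9 was -0.02 (0.40 on a common FPKM sum). Uba1, the main ubiquitin E1, was at 49.9 FPKM in knockout against 48.0 FPKM in wild type (0.05). The largest differences were those of Sae1, of the SUMO E1 (-0.16), and Uba7 (-0.14). Of the 8 genes with an E2 fold and another kind of name, 6 were below 0, beside the same 63.1%. Their median was -0.07 (0.32 on a common FPKM sum). Ufc1, the E2 of the modifier UFM1, was at 11.9 against 15.6 FPKM (-0.37) and Aktip, an inactive E2 variant, at 0.25.

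The 5 names below the measured limit included Ube2s, described above. Ube2cbp was listed at 0.198 FPKM in knockout against 0.431 FPKM in wild type. Ube2ql1 was listed at 0.0218 against 0.108 FPKM. Ube2u and Ube2dnl1 were listed at 0 in both libraries. No fold between the libraries is given for these low values.

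FPKM divides fragments that match several genes, so the shared sequence of each member was counted. In the longest coding transcript of each member in GENCODE release M21, 50-base runs were looked up in transcripts of all other annotated genes. Of the 30 measured members 13 shared no run, Ube2t, Ube2a and Ube2b among them, and 15 shared a run with an annotated pseudogene. Above 10% were 6 members. The highest shares were those of Ube2v1, given above, and Ube2q2 (20.9%, with 1 pseudogene). Next came Ube2d2a (16.2%), Ube2j2 (12.9%), Ube2e1 (12.1%) and Ube2n (10.7%). The unmeasured Ube2s shared none. In Gapdh, taken for comparison after its values were seen, 82.5% of runs were shared.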

How the data were processed

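RNA sequencing of 1 wild-type and 1 Sptbn1 knockout library of mouse embryonic fibroblasts was used. Per the series' design text, the authors aligned reads with TopHat2 version 2.0.10 to NCBI mouse build 37.2, quantified them with Cufflinks and compared them with Cuffdiff2. The authors deposited FPKM per gene, per the file headers, and a p-value, printed here only as theirs. Their log2 fold column was not used. The column headed with both a wild-type and a -/- mark was taken as wild type from its match to that library's title.

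Repeated names were reduced to their highest row. Ratios used a pseudocount of 1 FPKM, a mean of 1 FPKM or more, and folds of 2 and 1.2. The calculation was tested on simulated data. Alternatives were a pseudocount of 0.1 FPKM, other scalings, other minimum levels and summed repeated rows. Every Ube2 name entered the counts. Some genes and 1 list of partners are not reported here. In each list of partners, genes past 2-fold were named, otherwise the 2 with the largest differences. Further partners, among them Rad18, Uba1, Uba6, Mki67, Fancd2, Fanci and Isg15, were named after their values were seen. Cdc20 and Uba7 are each on 2 lists. Members, the 11 partner lists and their genes were chosen with earlier results of these data known. Symbols came from RefSeq (GRCm38.p6) and transcripts from GENCODE M21. Python 3.11.15 with pandas 2.3.3 and numpy 2.4.6 was used.

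The FPKM sums were 279927 (knockout) and 386567 (wild type), and fragment totals were not used here. The commonest log2 ratio of 3100 low rows, 0.69, puts the value of 1 fragment 1.61 times higher in the knockout library, which was thus the shallower.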

Additional observations from a re-analysis of the deposited data

How the results depend on the processing

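With 1 library per genotype no replicate could be left out. No paired analysis was possible because each genotype had 1 library. A value counted as shifted when it moved by more than 0.263 (1.2-fold). The count of 1 member at least 2-fold lower and 0 higher held under all alternatives run. Ube2t was at -2.16 with a pseudocount of 0.1 FPKM and at -1.41 on a common FPKM sum. The median of the measured members turned to 0.35 on a common FPKM sum and to 0.18 on that sum without Mir682 and Dnaja1, an alternative chosen after seeing the data. The 5 members at least 1.2-fold lower became 2 with the median gene at 0, 1 with a common upper quartile, 1 on a common FPKM sum and 1 on that sum without Mir682 and Dnaja1. The count at least 1.2-fold higher became 21 and 7 on these sums. On a common FPKM sum Ube2g2 turned to 0.12, Ube2a to 0.11, Ube2b to 0.17 and Ube2l6 to 0.17, and 25 other members shifted by more than 0.263. These sums rescale every gene by 1 factor: the median of all measured genes was 0.34 and 0.17 there. The lower depth of the knockout library cannot be expressed as counts, so the precision of low members such as Ube2v2 and Ube2o is unknown.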
